A study of Mus musculus with 35 samples.

Results

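The comparison of irradiated fibroblasts with and without micronuclei was restricted to the 20 cells with the least mitotic RNA, out of 35 cells in the series. All 35 were single mouse embryonic fibroblasts of strain C57Bl/6J, kept at 3% oxygen and given 1 Gy of ionising radiation. They were re-plated on membrane dishes at 32 h, stained with the DNA dye PicoGreen and cut out by laser at 48 h. Libraries of polyadenylated RNA were made from each cell by Smart-seq2, which reads whole transcripts and carries no molecular identifiers. The cells were selected on the summed CPM (reads on a gene per 1000000 reads on all genes, spike-ins left out) of Top2a, Mki67, Cdk1, Ccnb1, Cenpf, Tpx2, Nusap1, Ube2c, Birc5 and Hmgb2. The 20 lowest cells held 11 of the 21 cells with micronuclei and 9 of the 14 without. No cell of the series was left without the dose, so both groups carry it. Each library is 1 cell and the labels name no culture, embryo or animal, so each group counts as 1 sample and no test was possible. Cells are named MN1 to MN21 and noMN1 to noMN14, in the order of the records.

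Micronuclei are small bodies of chromatin outside the main nucleus, which form when a chromosome or a fragment is left behind at division. A cell therefore has to pass through mitosis to gain one after irradiation. Their envelope can break, and the DNA sensor cGAS (encoded by Mb21d1) then makes a cyclic dinucleotide that activates STING (encoded by Tmem173) and, through it, interferon and NF-kB genes. The selection genes act late in the cell cycle: Top2a untangles chromosomes, Cdk1 and Ccnb1 form the kinase that starts mitosis, Cenpf serves kinetochores, Tpx2 and Nusap1 the spindle, Birc5 the chromosomal passenger complex and Ube2c the anaphase-promoting complex. Mki67 coats mitotic chromosomes and Hmgb2 is a chromatin protein of dividing cells. Their RNA falls after division and rises again in G2, so a low sum marks cells away from G2 and mitosis but does not tell an arrested cell from one in G1.

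Promoters of such genes are known for paired CCAAT boxes and a cell cycle homology region with the core TTTGAA. The selection genes chose the cells, and the bases before the start site are shown for 3 of them that hold both motifs there. Nusap1 and Birc5 held neither motif in the 250 bases before the start, and Ccnb1 and Cenpf held CCAAT but no TTTGAA. Capitals mark CCAAT and TTTGAA on either strand (reverse complements ATTGG and TTCAAA). The sequences are the last 100 bases before the start, read in the direction of the gene, from RefSeq on GRCm38.p6.
Top2a (chr11:99024190-99024289, minus strand): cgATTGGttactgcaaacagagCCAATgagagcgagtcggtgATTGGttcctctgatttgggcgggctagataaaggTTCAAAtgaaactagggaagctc
Cdk1 (chr10:69352913-69353012, minus strand): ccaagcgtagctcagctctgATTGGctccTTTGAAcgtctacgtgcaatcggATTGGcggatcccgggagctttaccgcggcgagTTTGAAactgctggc
Ube2c (chr2:164769829-164769928, plus strand): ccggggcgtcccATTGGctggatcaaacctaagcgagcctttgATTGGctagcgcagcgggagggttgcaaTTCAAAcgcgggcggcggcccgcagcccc
Of the 10 selection genes, 9 were matched to a promoter. Over the 250 bases before the start, TTTGAA was present on either strand in 5 of them, against 18.3% of 27025 genes, and CCAAT in 7, against 37.5%. The 2 motifs do not overlap in letters, and a match is a description of these windows.

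The selection left the groups unequal in the measure that chose them. Micronucleated low-mitotic cells had lowest, median and highest sums of 2.77, 176 and 314 CPM, and low-mitotic cells without micronuclei 77.5, 399 and 440.0 CPM. The 5 lowest cells were all micronucleated, and the 5 highest of the 20 all lacked micronuclei. Just inside the limit were noMN7 at 438 CPM and noMN13 at 440.0 CPM, and just outside were MN16 at 576 CPM and MN18 at 616 CPM. Among the selection genes, Top2a lay at 7.33 against 40.1 CPM, Mki67 at 4.49 against 4.36 CPM, Cdk1 at 48.6 against 70.1 CPM, Cenpf at 16.2 against 43.9 CPM and Tpx2 at 10.3 against 111 CPM, micronuclei first. Ube2c lay at 6.58 against 26.8 CPM, Birc5 at 9.73 against 14.1 CPM, Hmgb2 at 3.44 against 33.1 CPM and Ccnb1 at 0.299 against 10.8 CPM, while Nusap1 had no read with micronuclei and 4.24 CPM without. Mki67 was at 0 reads in 16 of the 20 cells and Top2a in 8, against 3 and 2 of the other 15. Single cells set several of these differences. As log2 ratios of micronuclei over no micronuclei, Mki67 lay at 0.03 (-2.42 without MN2 and 1.08 without noMN1), Cdk1 at -0.52 (-1.56 without MN14 and 0.51 without noMN11) and Ccnb1 at -3.19 (-0.13 without noMN10). Tpx2 lay at -3.30 (-1.66 without noMN7), Ube2c at -1.87 (-2.61 without MN2 and -2.56 without MN3), and Cenpf at -1.39, Nusap1 at -2.39 and Hmgb2 at -2.94 (-0.62, -1.58 and -2.30 without noMN5). These values describe the choice of cells and support nothing else.

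**Figure D1:**
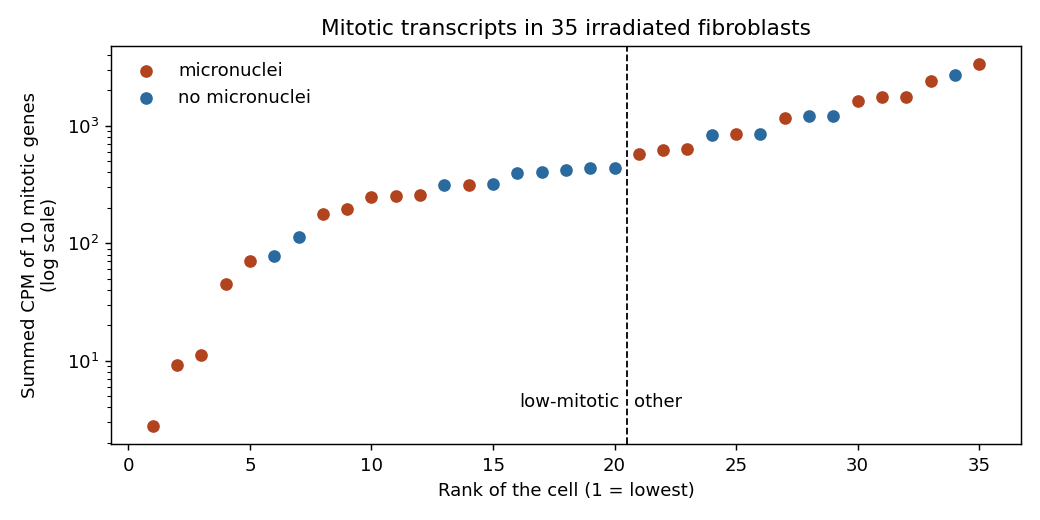
Summed CPM of the 10 mitotic genes (log axis) in each of the 35 cells, ordered from lowest to highest, coloured by micronucleus status. The dashed line separates the 20 low-mitotic cells from the other 15, and the 5 cells just left of it all lack micronuclei.

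Genes that the rule did not use followed the sum only in part. The summed CPM of 61 other G2 and mitosis genes was 464, 1554 and 2234 (lowest, median, highest) in the 20 cells and 1658, 3947 and 8545 in the other 15. Replication genes summed to 672, 2097 and 3975 CPM in the 20 and 1526, 5159 and 7199 CPM in the 15. Both ranges overlap, with medians over 2-fold lower in the low-mitotic cells. p53 targets summed to 2773, 5882 and 11315 CPM against 2960.3, 4758 and 10022 CPM, ranges that overlap nearly throughout. Cdkn1a, which encodes the CDK inhibitor p21 and is induced by p53, had at least 5 reads in all 20 low-mitotic cells, at a median of 1473 CPM, and in all 15 others, at 1165 CPM.

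Reads on genes were 119337, 433473 and 1465562 (lowest, median, highest) per micronucleated low-mitotic cell and 239464, 825661 and 2023111 per cell without. Deep cells weigh most in a sum: noMN7 held 25.2% of its group's reads and MN14 21.9% of its own. The fibroblast genes Col1a1 (2065 against 2949 CPM, log2 ratio -0.51) and Vim (1879 against 2769.5 CPM, log2 ratio -0.56) had at least 5 reads in all 20 cells. MN10 held at least 5 reads of 14 of 16 macrophage markers, with Lyz2 at 13946 CPM, beside Col1a1 at 2542 CPM and Vim at 2405 CPM. Macrophage markers summed to 17116 CPM in MN10 and to at most 226 CPM in each of the other 19 cells. Y-linked reads were found in noMN7 alone (17 reads), which also held 17 reads of Xist, the X inactivation RNA, otherwise a female transcript. How MN10 and noMN7 came to hold such reads was not tested. Both cells were kept in the main values, and were left out singly and together as alternatives. Log2 ratios of named genes are also given without any cell that moved them by over 1.5-fold.

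Of 7831 measured genes (at least 5 CPM over the 20 cells and 5 reads in 4 of them), 1885 (24.1%) were at least 2-fold higher and 1401 (17.9%) at least 2-fold lower in summed reads of the micronucleated cells. A stricter set stayed past 2-fold in summed reads, with equal weight for each cell and with each cell left out: 743 genes (9.49%) higher and 400 (5.11%) lower. Ratios are on the log2 scale after 1 CPM was added to the summed value of each group, positive where micronucleated cells were higher. Their median over all measured genes was 0.13 (0.10 with equal weight), and 0.44 for the same genes in the other 15 cells. Each list median below reads against these values. The other 15 cells share no cell with the 20. Of 6146 genes measured in both sets, 53.8% had the same sign. Of 1292 genes higher in the 20 cells, 62.5% were above 0 in the 15, where 57.3% of all genes were. Of 994 lower genes, 45.3% were below 0 in the 15, where 42.7% of all genes were, and 36.2% were at least 2-fold the opposite way, where 34.6% of all genes were at least 2-fold higher. At least 2-fold the same way in the 15 were 41.5% of the higher genes, where 34.6% of all genes were. For the lower genes it was 24.25%, where 18.96% of all genes were. Of the higher genes 20.6% were at least 2-fold the opposite way, where 18.96% of all genes were at least 2-fold lower. Each of these shares lay somewhat above that of all genes. Some named genes share exon sequence with another annotated gene, which leaves their reads uncertain. Beside those marked below, these are Cdk2 (with Pmel), Ephx1, Cdkn1a, Ndufa9, Rps28 (with Kank3), Rpl22l1, Cxcl10 (with Art3), Irf7 (with Phrf1), Top2a, Nusap1 (with Oip5), Ube2c (with Tnnc2), mt-Nd1 and mt-Nd2.

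**Figure D2:**
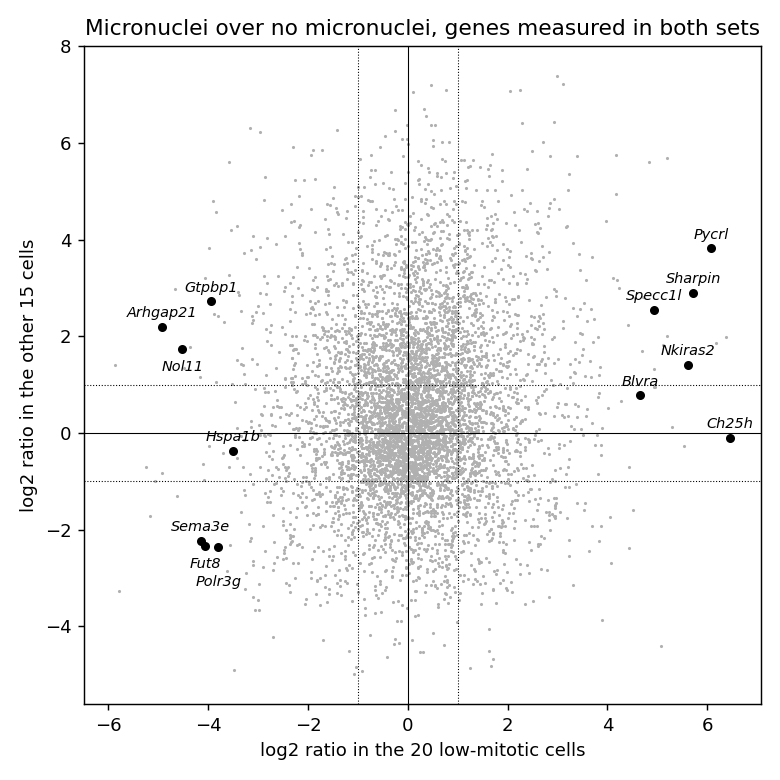
Log2 ratio of summed CPM, micronuclei over no micronuclei, in the 20 low-mitotic cells (x) and in the other 15 cells (y), 1 grey point per gene measured in both sets. Black points are the leading genes described in the text that were measured in both, and dotted lines mark 2-fold.

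The 12 leading higher genes were those furthest past 2-fold in summed reads, equal weight and every leave-out. Ch25h (GRCm38, chr19:34473778-34475164), which makes the oxysterol 25-hydroxycholesterol and is known as an interferon-inducible gene, had 0, 29.9 and 578 CPM (lowest, median, highest) in micronucleated cells and no read in the 9 cells without. With a floor of 3 reads over the group it was at least 231-fold higher, and its log2 ratio of 6.45 (4.99 without MN11) depends on the CPM added. It was not higher in the other 15 cells (-0.09), and an antisense gene overlaps it, so its reads are uncertain. Sharpin (chr15:76347040-76351111), a subunit of the ubiquitin ligase that makes linear chains in NF-kB signalling, had 0, 41.9 and 326 CPM with micronuclei and 0, 0 and 10.8 CPM without, with reads (5 or more) in 9 micronucleated cells and 1 cell without. The log2 ratio of Sharpin was 5.72 (4.77 without MN11 and 6.62 without noMN13), and 2.90 in the other 15. Nkiras2, which slows IkB degradation, had 219.8 against 3.49 CPM (log2 ratio 5.62, 5.00 without MN11 and 6.47 without noMN13) and overlaps Dnajc7 on the opposite strand. Pycrl, a proline synthesis enzyme, had 0, 37.4 and 565 CPM with micronuclei and 2 reads in all without, a CPM ratio of 336 (counting interval 92.7 to 2784), with a log2 ratio of 6.08 (5.36 without MN21), and 3.82 in the other 15. In each of these genes some micronucleated cells were at 0, so the groups overlapped. Of the 12 leading higher genes 10 had the same sign in the other 15, where 57.3% of all genes measured in both sets were above 0. Among the 10, Sema6a and Mapk1ip1, described next, had 0.454 and 0.227 CPM with micronuclei in the other 15. Both had 0 CPM there without micronuclei, and no cell reached 5 reads, so these 2 signs are uncertain.

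Blvra, which reduces biliverdin to bilirubin, lay at 55.5 against 1.25 CPM (log2 ratio 4.65, 5.82 without noMN10). Mtrr, which reactivates methionine synthase, had 3 reads without micronuclei and a CPM ratio of 178 (counting interval 60.6 to 867), log2 ratio 5.62 (3.96 without MN14). Rgs4, a brake on G protein signalling, lay at 115 against 2.24 CPM (log2 ratio 5.16, 3.90 without MN11 and 6.85 without noMN9). Adprhl2, which removes ADP-ribose from proteins after DNA damage, lay at 113 against 0.623 CPM (log2 ratio 6.14, 3.74 without MN11 and 6.83 without noMN9), and at a log2 ratio of -2.02 in the other 15, the opposite sign. The semaphorin Sema6a lay at 53.7 against 0.623 CPM (log2 ratio 5.08, 4.46 without MN11). Specc1l, a cytoskeletal crosslinker, lay at 236 against 6.73 CPM (log2 ratio 4.94, 3.61 without MN11 and 5.63 without noMN13). Hs1bp3 lay at 74.5 against 1.62 CPM (log2 ratio 4.85, 4.18 without MN21). Mapk1ip1 had no read without micronuclei and was at least 79.7-fold higher with a log2 ratio of 4.94 (4.20 without MN7). Hs1bp3 and Mapk1ip1 overlap genes on the opposite strand and are uncertain.

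The 12 leading lower genes are given next. Sema3e (chr5:14025276-14256689), a secreted semaphorin that acts on plexin D1, had 0, 16.1 and 79.7 CPM with micronuclei and 0, 74.6 and 646 CPM without, a log2 ratio of -4.15 (-3.44 without noMN7) and -2.22 in the other 15. Fut8, which adds core fucose to N-glycans, lay at 6.29 against 121 CPM (log2 ratio -4.06, -4.82 without MN10 and -2.99 without noMN1), with noMN1 at 1003 CPM. Polr3g, a subunit of RNA polymerase III, lay at 1.05 against 27.4 CPM (log2 ratio -3.79, -3.19 without noMN11). These 3 kept their sign in the other 15 (Fut8 -2.34, Polr3g -2.35). Ints10, of the Integrator complex, had 1 read with micronuclei and a CPM ratio, without over with micronuclei, of 188 (counting interval 33.4 to 7464), log2 ratio -4.66, and 5.48 in the other 15. Dhx40, an RNA helicase, had 3 reads with micronuclei and a CPM ratio, without over with micronuclei, of 51.9 (counting interval 17.5 to 254), log2 ratio -4.07.

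Arhgap21 lay at 1.5 against 74.6 CPM (log2 ratio -4.92, -5.54 without MN1 and -3.67 without noMN7). Gtpbp1, a GTP-binding protein, lay at 3.29 against 65.3 CPM (log2 ratio -3.95, -3.24 without noMN1). Nr2f6, an orphan nuclear receptor, lay at 0.748 against 24.3 CPM (log2 ratio -3.85). Adcy6, an adenylyl cyclase, lay at 3.89 against 78.7 CPM (log2 ratio -4.03, -3.06 without noMN5). Nol11, which serves ribosomal RNA processing, lay at 3.59 against 104 CPM (log2 ratio -4.52, -5.19 without MN1 and -2.90 without noMN7). Rpp38, a subunit of ribonuclease P, lay at 2.99 against 102 CPM (log2 ratio -4.69, -5.82 without MN10 and -2.82 without noMN7). Hspa1b, an inducible HSP70 chaperone, lay at 8.83 against 111 CPM (log2 ratio -3.51, -4.18 without MN2 and -2.89 without noMN7). Of the 12 leading lower genes, 8 had the opposite sign in the other 15, where 57.3% of all genes measured in both sets were above 0. Beside Ints10, the genes of opposite sign were Dhx40, Arhgap21, Gtpbp1, Nr2f6, Adcy6, Nol11 and Rpp38, with log2 ratios of 2.13, 2.20, 2.72, 2.33, 0.65, 1.73 and 3.60. Gtpbp1, Nr2f6, Fut8, Adcy6 and Nol11 overlap genes on the opposite strand and are uncertain.

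Outside the selection, the G2 and mitosis list and the replication list had medians below 0 in summed reads of the 20 cells. Both signs turned with other choices of cells, for which the genes were also filtered again. The count of members past 2-fold in this and each later list reads against 24.1% of all measured genes on the higher side and 17.9% on the lower. Of the other G2 and mitosis genes, 7 of 27 measured members were at least 2-fold higher and 7 at least 2-fold lower, at a median log2 ratio of -0.61 (-0.22 with equal weight, -0.23 in the other 15). With the 15 lowest cells kept the median was 1.02, over 17 measured genes and with 4 cells without micronuclei. Among the 9 cells in the range of the selection sum that both groups share, it was 0.97. That value covers 13 measured genes and 3 cells without micronuclei. The kinesin Kif22 lay at 34 against 0.623 CPM (log2 ratio 4.43, 3.57 without MN11 and 5.13 without noMN9), and the nuclear envelope receptor Lbr at 39.4 against 4.73 CPM (log2 ratio 2.82, 1.27 without MN14 and 4.00 without noMN10). The kinetochore motor Cenpe had 3 reads with micronuclei and a CPM ratio, without over with micronuclei, of 49.1 (counting interval 16.5 to 240.4), log2 ratio -3.99 (-2.27 without noMN1). Hjurp, which loads the centromeric histone, lay at 16.5 against 95.8 CPM (log2 ratio -2.47, -3.49 without MN2 and -1.13 without noMN7). Kif22 and Lbr overlap other genes and are uncertain.

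Of the replication genes, 7 of 44 measured members were at least 2-fold higher and 13 at least 2-fold lower, at a median of -0.43 (-0.05 with equal weight, 0.28 with the mean of log2(CPM + 1) over the same cells, -0.61 in the other 15). Among the 9 cells in the shared range it was 1.15, over 27 measured genes. Mcm2, a subunit of the replicative helicase, had 0, 0 and 49.8 CPM with micronuclei and 0, 48.5 and 192 CPM without, a log2 ratio of -3.27, and -1.17 in the other 15. Uhrf1, which keeps DNA methylation through replication, lay at 6.14 against 122 CPM (log2 ratio -4.11, -1.50 without noMN7). The clamp loader subunit Rfc3 lay at 5.39 against 55.7 CPM (log2 ratio -3.15, -4.83 without MN10 and -2.35 without noMN10), and the S phase transcription factor E2f1 at 2.84 against 15.3 CPM (log2 ratio -2.09, -2.76 without MN1 and -1.24 without noMN10). In the list of G1 cyclins and CDK inhibitors, 6 of 20 measured members were at least 2-fold higher and 5 at least 2-fold lower. The list median was 0.45. The list also holds other genes, and the members named next are neither cyclins nor CDK inhibitors. E2f3 lay at 16.5 against 2.12 CPM (log2 ratio 2.49, 3.35 without noMN5), Myc at 98 against 32.4 CPM (log2 ratio 1.57, 0.98 without MN7 and 2.61 without noMN10) and Cdk2 at 42.6 against 11.6 CPM (log2 ratio 1.79, 1.16 without MN14 and 3.29 without noMN11), while the antiproliferative gene Btg1 lay at 32.6 against 87.3 CPM (log2 ratio -1.39, -2.23 without MN14).

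**Figure D3:**
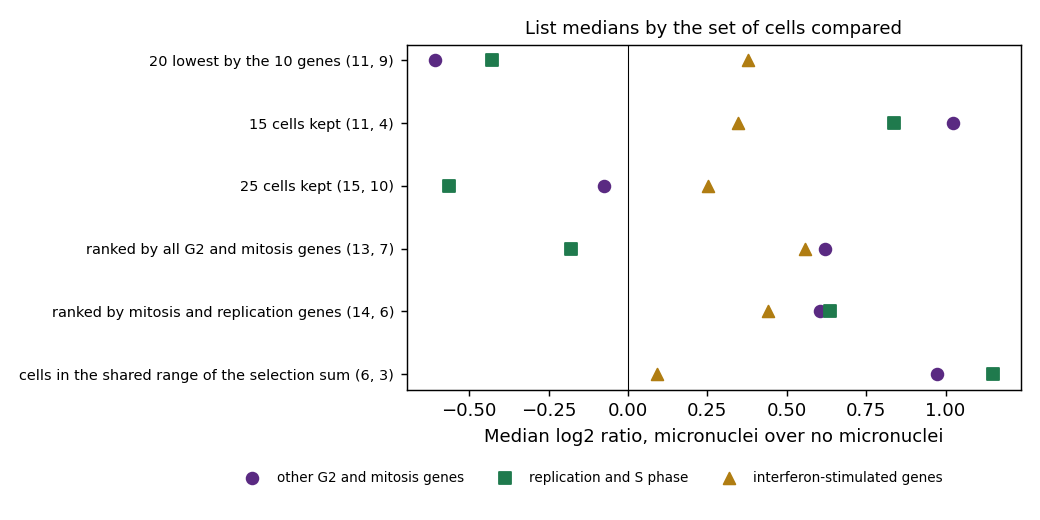
Median log2 ratio of the other G2 and mitosis genes, the replication genes and the interferon-stimulated genes for 6 choices of cells, with the numbers of cells with and without micronuclei in brackets. The G2 and mitosis median lies at -0.61 in the 20 cells and at 1.02 with 15 cells kept. Genes were filtered again for each choice, so these medians cover 27 and 17 measured genes.

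RNA of p53 targets was present in both groups. Cdkn1a had 814, 1550.3 and 4517 CPM with micronuclei and 174, 1422 and 3169.6 CPM without, log2 ratio 0.42. Mdm2, the ubiquitin ligase that degrades p53, lay at 109.5 against 190.3 CPM (log2 ratio -0.79). Of the p53 targets, 10 of 38 measured members were at least 2-fold higher and 3 at least 2-fold lower, at a median of -0.09 (0.30 with equal weight). Apaf1, which forms the apoptosome, had 0, 18.7 and 137 CPM with micronuclei and no read without, at least 87.3-fold higher, with a log2 ratio of 5.07 (3.57 without MN11), and -4.40 in the other 15, the opposite sign. The epoxide hydrolase Ephx1 lay at 69.3 against 9.47 CPM (log2 ratio 2.75, 3.72 without noMN13) and the phosphatase Ppm1d at 9.88 against 1.37 CPM (log2 ratio 2.20). Pmaip1, which encodes the apoptosis inducer Noxa, lay at 1.20 against 16.3 CPM (log2 ratio -2.98, -2.35 without noMN11).

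Of the DNA damage signalling and repair genes, 11 of 31 measured members were at least 2-fold higher and 7 at least 2-fold lower, 35.5% and 22.6% against 24.1% and 17.9% of all genes. Their median was 0.33 (-0.08 with equal weight, -0.38 in the other 15), and -0.23 without MN7 and -0.21 without MN14. The named members were higher: the checkpoint kinase Atr at 55.4 against 0.623 CPM (log2 ratio 5.12), the end-resecting nuclease Mre11a at 14.5 against 0.872 CPM (log2 ratio 3.05, 2.36 without MN7 and 3.96 without noMN13), the Ku70 gene Xrcc6 at 20.9 against 2.62 CPM (log2 ratio 2.60, 3.92 without noMN11) and the recombination gene Rad52 at 11.1 against 1.12 CPM (log2 ratio 2.51, 1.71 without MN10). Atr, Mre11a and Xrcc6 overlap genes on the opposite strand and are uncertain. Of the nuclear envelope and ESCRT-III genes, 7 of 39 measured members were at least 2-fold higher and 7 at least 2-fold lower. Within this list, ESCRT-III seals the envelope. Chmp7, an ESCRT-III adaptor at the envelope, lay at 91.6 against 7.85 CPM (log2 ratio 3.39, 1.88 without MN11 and 4.07 without noMN7). The nucleoporin Nup160 had 2 reads with micronuclei and a CPM ratio, without over with micronuclei, of 107 (counting interval 29.2 to 885), log2 ratio -4.66 (-3.65 without noMN10). The microtubule severing gene Spast lay at 1.95 against 13.3 CPM (log2 ratio -2.28, -3.84 without MN2) and the lamin Lmnb2 at 1.05 against 11.6 CPM (log2 ratio -2.62, -3.43 without MN10 and -1.83 without noMN11).

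Reads of the cGAS and STING genes were sparse. Mb21d1 came from 1 cell a group, MN10 and noMN7, at 1.95 against 38.6 CPM, a log2 ratio of -3.75 (-5.31 without MN10 and 1.56 without noMN7). Tmem173 had 0, 14.2 and 122 CPM with micronuclei and 0, 0 and 21.3 CPM without, reaching 5 reads in 5 micronucleated cells and 2 without, a log2 ratio of 2.89 (2.08 without MN14 and 3.72 without noMN11), and -3.42 in the other 15, the opposite sign. Of the nucleic acid sensing genes, 4 of 22 measured members were at least 2-fold higher and 7 at least 2-fold lower, at a median of -0.19. The RNA polymerase III subunit Polr3b lay at 11.1 against 2.49 CPM (log2 ratio 1.79, 1.12 without MN10 and 3.59 without noMN11), the ribonuclease H2 subunit Rnaseh2b at 5.39 against 14.2 CPM (log2 ratio -1.25) and Stat6 at 32.8 against 299 CPM (log2 ratio -3.15, -4.10 without MN10 and -0.84 without noMN7). These 3 overlap genes on the opposite strand and are uncertain.

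Of 64 listed interferon-stimulated genes, 16 were measured. At least 2-fold higher were 7 of the 16, where 24.1% of all genes were, and at least 2-fold lower were 4, where 17.9% were, at a median of 0.38 (0.14 with equal weight, -0.30 in the other 15). Cxcl10, Ccl5 and Irf7 had no read in the 20 cells, and Isg15 had 2 reads in all, below the floor of 3. Trim25, a ubiquitin ligase of the RIG-I pathway, had 0, 30.7 and 344 CPM with micronuclei and 0, 0 and 32 CPM without, a log2 ratio of 2.37 (3.38 without noMN10), and 3.80 in the other 15. Ifi27 lay at 96.1 against 30.6 CPM (log2 ratio 1.62, 2.30 without noMN6) and Ifit2 at 58.8 against 2.37 CPM (log2 ratio 4.15, 2.08 without MN14 and 5.90 without noMN10), the latter reaching 5 reads in 3 micronucleated cells and 1 without. The kinase PKR gene Eif2ak2 lay at 22.6 against 132 CPM (log2 ratio -2.49, -1.81 without noMN11), and overlaps other genes on the opposite strand.

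Among antigen presentation genes, 0 of 10 measured members were at least 2-fold higher and 2 at least 2-fold lower, at a median of 0.59, which was 0.12 without MN10. B2m, the light chain of MHC class I, had 431, 1256 and 2509 CPM with micronuclei and 309, 1124 and 1487 CPM without, log2 ratio 0.77. The chaperones of the endoplasmic reticulum Canx (1399 against 3482 CPM, log2 ratio -1.31, -0.63 without noMN7) and Calr (452 against 832 CPM, log2 ratio -0.88) and the proteasome activator Psme1 (16.9 against 110.5 CPM, log2 ratio -2.64, -1.60 without noMN7) were lower. Among NF-kB targets, 4 of 16 measured members were at least 2-fold higher and 5 at least 2-fold lower. The NF-kB subunit Rel had 1 read without micronuclei and a CPM ratio of 148 (counting interval 26 to 5883), log2 ratio 4.11 (2.63 without MN11), and the inhibitor Nfkbib lay at 96.7 against 14.7 CPM (log2 ratio 2.64, 1.84 without MN11 and 3.78 without noMN13). The mitochondrial superoxide dismutase Sod2 lay at 42.2 against 187 CPM (log2 ratio -2.12) and the macrophage growth factor Csf1 at 221 against 702 CPM (log2 ratio -1.67, -0.92 without noMN7). Nfkbib and Psme1 overlap genes on the opposite strand.

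Of the senescence secretory genes, 6 of 24 measured members were at least 2-fold higher and 4 at least 2-fold lower, at a median of 0.01. The growth factor Fgf2 lay at 75.6 against 11 CPM (log2 ratio 2.68, 2.05 without MN14 and 3.29 without noMN10), the EGF family ligand Ereg at 7.18 against 56.7 CPM (log2 ratio -2.82, -3.44 without MN12 and -2.19 without noMN10), the gelatinase Mmp2 at 21.1 against 151 CPM (log2 ratio -2.79, -3.46 without MN1 and -1.34 without noMN5) and the IGF-binding protein Igfbp4 at 29.3 against 157 CPM (log2 ratio -2.38, -3.19 without MN14 and -0.98 without noMN1). Among collagens and matrix genes, 9 of 50 measured members were at least 2-fold higher and 7 at least 2-fold lower, at a median of -0.11 (0.58 in the other 15). Thbs2, a thrombospondin, lay at 277 against 79.1 CPM (log2 ratio 1.79), the laminin chain Lama4 at 11.1 against 1.62 CPM (log2 ratio 2.20, 2.96 without noMN10), Mfap4 at 53 against 4.24 CPM (log2 ratio 3.37, 2.26 without MN2 and 4.88 without noMN7) and fibromodulin, Fmod, at 1.35 against 20.4 CPM (log2 ratio -3.19, -4.42 without MN1 and -1.66 without noMN5). Fgf2, Ereg and Mfap4 overlap genes on the opposite strand.

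Of the contractile and YAP genes, 7 of 45 measured members were at least 2-fold higher and 6 at least 2-fold lower, at a median of -0.03 (0.72 in the other 15). The YAP targets Cyr61 and Amotl2 were detected in every cell. Cyr61, a matricellular protein, had 464, 1697 and 4459 CPM with micronuclei and 63, 1168 and 2678 CPM without, log2 ratio 1.08. Amotl2 had 25.1, 243 and 528 CPM and 35.8, 76 and 356 CPM, log2 ratio 1.29. Both pairs of ranges overlap. The YAP partner TAZ, encoded by Wwtr1, lay at 102 against 253 CPM (log2 ratio -1.30, -0.68 without noMN5) and the kinase Nuak2 at 3.29 against 26.7 CPM (log2 ratio -2.69, -3.81 without MN2 and -1.88 without noMN7).

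Among immediate early genes, 8 of 29 measured members were at least 2-fold higher and 7 at least 2-fold lower, at a median of 0.36. Fos lay at 192 against 12.2 CPM (log2 ratio 3.87, 1.70 without MN14 and 4.83 without noMN9), Zfp36l1, which promotes decay of AU-rich mRNAs, at 127 against 13.5 CPM (log2 ratio 3.15, 1.51 without MN11 and 3.91 without noMN11) and Egr2 at 10 against 1.74 CPM (log2 ratio 2.01), while Fosb lay at 1.20 against 18.4 CPM (log2 ratio -3.15, -3.90 without MN5 and -1.91 without noMN9). Among heat shock genes and chaperones, 1 of 27 measured members were at least 2-fold higher and 4 at least 2-fold lower, below the share of all genes on the higher side. Hspa4 lay at 146 against 69.3 CPM (log2 ratio 1.06), Hspa4l at 29.9 against 117 CPM (log2 ratio -1.93) and the mitochondrial chaperonin Hspd1 at 186 against 462 CPM (log2 ratio -1.31, -0.52 without noMN7). Of the unfolded protein and integrated stress genes, 4 of 44 measured members were at least 2-fold higher and 9 at least 2-fold lower. The stress sensor Ern1 lay at 1.20 against 31.5 CPM (log2 ratio -3.89, -4.81 without MN2 and -2.92 without noMN11), its co-chaperone Dnajb9 at 36.1 against 143 CPM (log2 ratio -1.96, -2.71 without MN7 and -1.21 without noMN7), Cebpb at 3.29 against 34.6 CPM (log2 ratio -3.05, -3.71 without MN14 and -0.92 without noMN5) and the tryptophanyl-tRNA synthetase Wars at 42 against 138 CPM (log2 ratio -1.70, -3.06 without MN14). Zfp36l1, Hspd1, Dnajb9 and Cebpb overlap genes on the opposite strand.

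Of the glycolysis and hypoxia genes, 6 of 31 measured members were at least 2-fold higher and 6 at least 2-fold lower. Phosphofructokinase Pfkl lay at 128 against 37.7 CPM (log2 ratio 1.74, 2.92 without noMN1), the oxygen sensor Egln1 at 4.79 against 31.6 CPM (log2 ratio -2.50, -1.53 without noMN1), the oxidase Ero1l at 37 against 264 CPM (log2 ratio -2.80, -1.25 without noMN7) and the lactate carrier Slc16a1 at 4.49 against 18.4 CPM (log2 ratio -1.82, -1.11 without noMN9). Few nuclear genes of oxidative phosphorylation were past 2-fold: 5 of 74 measured members were at least 2-fold higher and 3 at least 2-fold lower. Complex I genes Ndufv1 (204 against 34.1 CPM, log2 ratio 2.55, 3.80 without noMN10), Ndufa9 (183 against 63 CPM, log2 ratio 1.52) and Ndufc2 (118 against 44.2 CPM, log2 ratio 1.39, 2.42 without noMN11) and the complex III gene Uqcrc1 (614 against 265 CPM, log2 ratio 1.21, 1.91 without noMN11) were higher. Mitochondrially encoded genes had a median of -0.43 (-0.07 with equal weight). The mitochondrial share of reads was 0.60, 1.39 and 5.28% (lowest, median, highest) with micronuclei and 1.04, 2.40 and 3.33% without. Of the micronucleated cells, 3 lay above and 3 below every cell without. mt-Nd1 lay at 1525 against 3427 CPM (log2 ratio -1.17), mt-Nd2 at 738 against 1606 CPM (log2 ratio -1.12), mt-Nd5 at 1107 against 1620.3 CPM (log2 ratio -0.55) and mt-Nd6 at 344 against 670.5 CPM (log2 ratio -0.96), and mt-Nd5 and mt-Nd6 overlap each other. Of 81 ribosomal protein genes 1 was past 2-fold, Rpl22l1 at 51.5 against 173 CPM (log2 ratio -1.73). Above 0 were 25 of the 81 and below 0 were 56, where 54.7% of all measured genes were above 0. The list median was -0.12 (-0.10 with equal weight, 0.04 without MN7, -0.41 in the other 15). Rps28 lay at 389.8 against 653 CPM (log2 ratio -0.74), Rpl17 at 259 against 374 CPM (log2 ratio -0.53) and Rps6 at 518 against 346 CPM (log2 ratio 0.58).

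Lysosome and autophagy genes were above 0 in 37 of 49 measured members and below in 12, where 4286 of all 7831 measured genes were above 0: 11 of 49 measured members were at least 2-fold higher and 5 at least 2-fold lower, close to the share of all genes on the higher side. Their median was 0.47 (0.27 with equal weight, 0.24 in the other 15). All measured genes had a median of 0.13, and of 0.44 in the other 15, above that of the lysosome and autophagy genes there. Laptm4a, a lysosomal membrane protein, had 89.9, 206 and 478 CPM with micronuclei and 0, 80.8 and 193 CPM without, log2 ratio 1.36. The protease Lgmn lay at 121 against 15.1 CPM (log2 ratio 2.93), the hexosaminidase Hexa at 174 against 64.9 CPM (log2 ratio 1.41) and the proton pump subunit Atp6v1a at 61.5 against 247 CPM (log2 ratio -1.99). Of the cholesterol and fatty acid synthesis genes, 7 of 30 measured members were at least 2-fold higher and 2 at least 2-fold lower. Squalene synthase, Fdft1, lay at 207 against 49.3 CPM (log2 ratio 2.05), Pmvk at 125 against 11 CPM (log2 ratio 3.40, 2.71 without MN11 and 6.34 without noMN6), Nsdhl at 54.9 against 18.6 CPM (log2 ratio 1.52, 2.98 without noMN6) and Sc5d at 61.5 against 165 CPM (log2 ratio -1.41). Among antioxidant and metal genes, 2 of 31 measured members were at least 2-fold higher and 4 at least 2-fold lower. The secreted peroxidase Gpx3 had 0, 88.4 and 444 CPM with micronuclei and 0, 2.37 and 43.4 CPM without, a log2 ratio of 2.99 (3.71 without noMN5), and 7.39 in the other 15. Heme oxygenase, Hmox1, lay at 683 against 254 CPM (log2 ratio 1.42) and glutathione reductase, Gsr, at 5.09 against 21.8 CPM (log2 ratio -1.91). Hexa and Fdft1 overlap genes on the opposite strand.

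**Figure D4:**
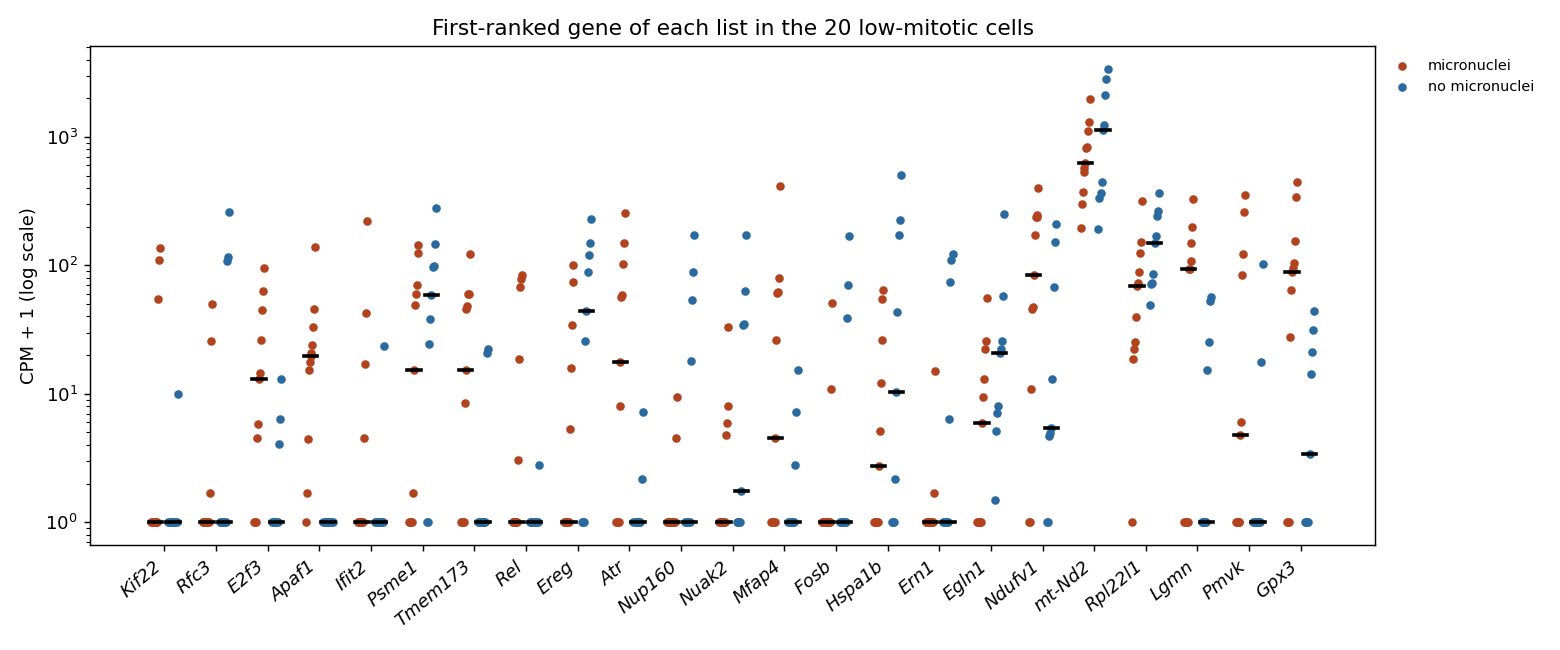
CPM + 1 (log axis) of the first-ranked gene of each list in each of the 20 low-mitotic cells, 1 point per cell, with black bars at the group medians. Most of these genes are at 0 in several cells of both groups, and the groups overlap.

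**Figure D5:**
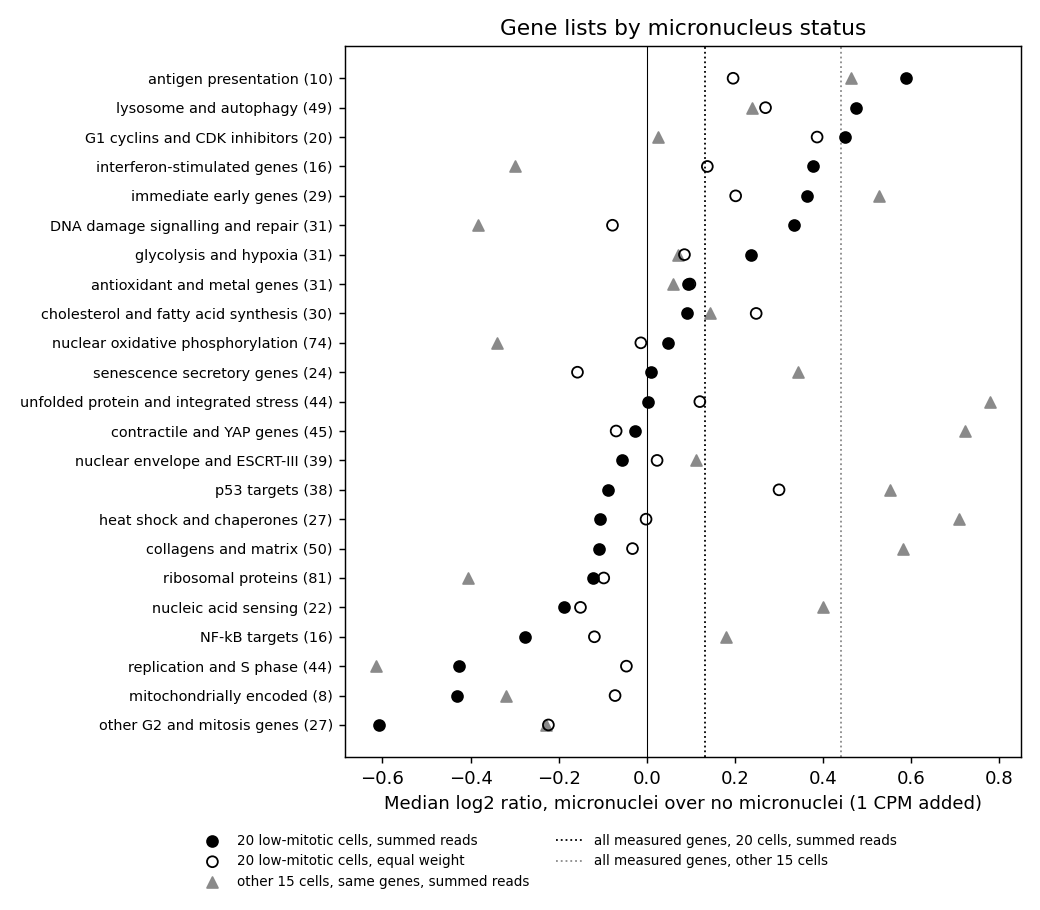
Median log2 ratio of each gene list, micronuclei over no micronuclei, with the number of measured members in brackets. Filled circles are summed reads of the 20 low-mitotic cells, open circles the same with equal weight, triangles the same genes in the other 15 cells, and dotted lines the medians of all measured genes.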

How the data were processed

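Whole-number read counts per gene, not normalized, were deposited by the authors for 35 cells and 19147 features (19085 genes, 62 ERCC spike-ins). STAR and the build GRCm38.p5 are named in the submitters' processing notes. How reads were counted, and whether strand was used, is not given in the sources used here, so overlapping genes cannot be told apart. CPM, sums and ratios were computed from these counts with Python 3.11.15, numpy 2.4.6, pandas 2.3.3 and scipy 1.17.1. Genes entered with 5 or more CPM over the 20 cells and 5 or more reads in 4 of them. Exact Poisson 95% intervals and floors hold counting error alone, as PCR copies were not collapsed. A group at 0 was set to a floor of 3 reads for a fold.

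The cells, lists and tests were chosen with earlier results of these data known. Named genes followed a rule: at least 20 CPM in either group and 5 reads in 50% of the cells of the higher group, then the 12 genes on either side whose least extreme log2 ratio over summed reads, equal weight and leave-outs was furthest from 0, up to 4 members a list by the same value, and a fixed set of sensing, p53, fibroblast and selection genes. All 133 genes it gave are named. S6 kinases and binding proteins caught by the name pattern of the ribosomal protein list were removed from it after values had been seen. Values beside a gene as "without" a cell are those that 1 cell moved over 1.5 times. Alternatives were equal weight, mean log2 CPM, TMM (edgeR 4.0.16, R 4.3.3) and scran 1.30.0 scaling, 0.1 or 5 CPM added, other filters, thinning to 239464 reads, 15 or 25 cells, other rankings, and cells left out by quality, macrophage markers or Xist. Thinning left out 3 cells of lower depth, MN3, MN5 and MN12, all micronucleated. Leaving out MN10 with noMN7, and the shared range of the selection sum, were added after seeing the data. Outliers were examined on the CPM scale. On a log2 scale, tried afterwards with fewer genes, fewer measures stood apart, and that version was not used. No doublet caller was run on cells picked by laser. No 2 cells had identical counts. Calculations were tested on simulated data. Positions come from GENCODE on GRCm38, matched by symbol, and Cyr61 and Mb21d1 had no match. Figures used matplotlib 3.10.9.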

Additional observations from a re-analysis of the deposited data

Results flagged for a closer look

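In the 9 low-mitotic cells without micronuclei, 67 of 161 measures examined had 1 cell whose gap to the nearest other cell exceeded Dixon's 95% value for 9 samples. Chance flags about 1 in 20 such groups where values are normally distributed, and CPM of sparse genes in single cells is not. The micronucleated group of 11 cells was too large for this rule. On list sums, noMN1 was highest for nucleic acid sensing genes (2254 CPM) and heat shock genes (15180 CPM) and lowest for nuclear oxidative phosphorylation genes (19070 CPM). The other 64 were single genes in which 1 cell stood above the rest. Where no other cell of the 9 had a read, as for Sharpin, Rel and Mb21d1, any cell with reads is flagged. For Rel that was 1 read. The genes examined were named on their values in these 20 cells, some for being low in this group, or had chosen the cells. Their flags are description only. In noMN1, CPM stood apart for Gtpbp1 at 423, Nr2f6 at 141, Fut8 at 1003, Hspa1b at 506, Cenpe at 245, Igfbp4 at 1520, Hspa4l at 545, Wars at 732, Egln1 at 252, Pfkl at 337, Vim at 9250 and Mki67 at 42.6. In noMN10, CPM stood apart for Blvra at 11.8, Rfc3 at 262, Myc at 179, Ifit2 at 22.5 and Ccnb1 at 99.5. In noMN11, CPM stood apart for Cdk2 at 51.5, Polr3b at 14.7, Xrcc6 at 13.2, Zfp36l1 at 42.7, Ndufc2 at 157 and Cdk1 at 248. In noMN12, CPM stood apart for Ints10 at 317, Pmaip1 at 129.5, Ppm1d at 25.1, Fgf2 at 100.2, Spast at 125, Chmp7 at 58.5, Nuak2 at 171 and Egr2 at 29.2. In noMN13, CPM stood apart for Pycrl at 1.54, Nkiras2 at 26.2, Sharpin at 10.8, Sema6a at 3.09, Nfkbib at 113, Atr at 6.17 and Mre11a at 10.8. In noMN5, CPM stood apart for Adcy6 at 355, E2f3 at 12.1, Mmp2 at 837, Wwtr1 at 882 and Cebpb at 230.2. In noMN6, CPM stood apart for Amotl2 at 356, Pmvk at 102 and Nsdhl at 127. In noMN7, CPM stood apart for Nol11 at 314, Rpp38 at 323, Hjurp at 269.9, Uhrf1 at 428, Stat6 at 1008, Mfap4 at 14.3, Ero1l at 782, Mb21d1 at 153 and Tpx2 at 336. In noMN9, CPM stood apart for Mtrr at 5.37, Rgs4 at 32.2, Adprhl2 at 8.95, Kif22 at 8.95, Rel at 1.79, Rad52 at 7.16, Fosb at 168, Slc16a1 at 120 and Rpl17 at 666.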

How the results depend on the processing

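No paired analysis was possible because the labels give the cells no shared replicate numbers. Over 18 settings, 405 of 414 list medians moved by less than the spread between cells. Directions were less stable: 101 of the 414 medians had the opposite sign, in 20 of the 23 lists. No list had a median past 2-fold in the 20 cells, the furthest from 0 being -0.61, so no larger median was there to compare. The number of genes 2-fold higher was 3938 with no filter, 946 with a stricter filter, 1185 after thinning to equal depth and 1231 among the 9 cells in the shared range of the selection sum. Thinning kept 8 cells with micronuclei and 9 without, so depth and the loss of micronucleated cells changed together there. The number 2-fold lower was 925 with the mean of log2(CPM + 1), 2788 with no filter, 725 with a stricter filter and 771 in the 8 cells with Xist reads. Over the 20 leave-outs these numbers ranged from 1635 to 2285 and from 1358 to 1578. The median of other G2 and mitosis genes was 1.02 with 15 cells kept, 0.62 ranked by all G2 and mitosis genes, 0.60 ranked by mitosis and replication genes and 0.97 in the shared range, where replication genes had 1.15 and antigen presentation genes -0.45. In cells with Xist reads p53 targets had 1.08, nucleic acid sensing 1.64 and repair genes 1.54. For each choice of cells the genes were filtered again, so the measured members could differ too. The setting of cells with Y-linked reads held no micronucleated cell and gave no value.

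Leaving out 1 cell turned the sign of the median in 13 of the lists: beside the repair genes, p53 targets had 0.21 without MN14 and nucleic acid sensing 0.31 without noMN1. With the mean of log2(CPM + 1) over the same cells 10 medians turned, among them replication genes (0.28), p53 targets (0.41), nucleic acid sensing (0.32) and collagens and matrix (0.19).

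Of 2394 gene values under these settings, 74 had the opposite sign, and in 53 of them the ratio in the 20 cells was past 2-fold. Those 53 are given next. With the mean of log2(CPM + 1) over cells, Eif2ak2 0.30. After thinning, Egr2 -0.15. With 15 cells kept, Hjurp 1.46, Rfc3 2.67, Uhrf1 0.68, Eif2ak2 1.65, Stat6 2.03, Wars 3.05, Nsdhl -0.053, Mb21d1 1.56, Ccnb1 0.38 and Tpx2 0.59. With cells ranked by all G2 and mitosis genes, Mb21d1 1.48 and Ccnb1 1.71. With cells ranked by mitosis and replication genes, Hjurp 1.77, Eif2ak2 2.05, Mb21d1 1.47, Ccnb1 1.75 and Tpx2 0.37. Without cells of under 4000 genes or over 9% mitochondrial reads, Igfbp4 0.84. In cells with Xist reads, Btg1 0.034, Pmaip1 2.16, Mmp2 1.07, Igfbp4 0.84, Spast 0.36, Lmnb2 1.29, Fmod 0.47, Fosb 2.17, Ern1 2.35, Egln1 0.10, Slc16a1 1.24, Sc5d 0.27, Cenpf 1.90 and Ube2c 0.020. In the shared range, Hjurp 1.73, Rfc3 3.43, Uhrf1 0.88, Eif2ak2 0.52, Rnaseh2b 0.42, Stat6 2.29, Mmp2 0.61, Igfbp4 0.62, Thbs2 -0.80, Hspd1 0.14, Wars 3.41, Cebpb 0.24, mt-Nd2 0.41, mt-Nd1 0.21, Nsdhl -0.55, Mb21d1 2.35, Ccnb1 0.71, Cenpf 1.78 and Tpx2 0.70. Of 2660 gene values with 1 cell left out, 10 had the opposite sign, in 3 genes. The naming rule favoured genes that kept their sign with equal weight and in every leave-out. The low count was therefore largely set by the rule and does not measure stability. The 3 genes belong to the fixed set, which was named whatever its values. Mb21d1 ranged from -5.31 (without MN10) to 1.56 (without noMN7), Cdk1 from -1.56 (without MN14) to 0.51 (without noMN11) and Mki67 from -2.42 (without MN2) to 1.08 (without noMN1). The cause was not tested. At these depths genes under a few reads per cell were not detectable, and 1 sample a group gives no replicate check.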
